A study of Mus musculus with 10 samples.

Results

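Chemokines are small secreted proteins that draw cells along a concentration gradient by binding receptors that couple to G proteins. They are grouped by the spacing of their leading cysteines into CC, CXC and CX3C families. In the brain, microglia and other macrophages make most of the inflammatory CC ligands after injury, infection or tissue handling, whereas Cxcl12 comes from vessels, meninges and some neurons, and Cx3cl1, also called fractalkine, is made mainly by neurons and is read by Cx3cr1 on microglia.

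The genes described here were 10 chemokine ligand genes of the mouse, taken by symbol from the 53379 genes counted in each library: Ccl2, Ccl3, Ccl4, Ccl5, Ccl7, Ccl12, Cxcl10, Cxcl12, Cxcl16 and Cx3cl1. All 10 passed the filter on low counts that left 19754 genes for testing. Low or absent counts in the neutral libraries led to the choice of these genes, so values that set neutral against other libraries are given as descriptions, with no test.

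The libraries were made from hippocampal regions of 5-week-old male mice injected with a pair of viruses, AAV9-TRE-ChR2-EYFP and AAV9-c-Fos-tTA. The second makes the transactivator tTA from the c-Fos promoter in active cells, and tTA switches on ChR2-EYFP unless doxycycline is given. The aversive libraries (aversive 1 and aversive 3) followed 4 foot shocks of 2 s at 1.5 mA, the appetitive libraries (appetitive 1 and 2) followed exposure to a female for 1 h by the labels and 2 h by the methods, and the neutral libraries (neutral 1 to 3) followed time in the conditioning cage without either stimulus. The mock libraries (mock 1 to 3) came from mice kept in the home cage, which the methods describe as an untagged control. Tissue was digested with enzymes at 37 °C and EYFP-positive material was sorted. The study names this material nuclei in its account of the results and cells in its methods. By the labels 8 mice were pooled for each condition, while the methods give 2 mice for the mock group, which has 3 libraries. The libraries of a group may thus share animals, also in mock, and the SDs and p-values then measure only the spread between libraries. The neutral libraries were made with another SMART-Seq v4 kit version, are labelled as total RNA where the others are labelled as polyA RNA, and were read at 100 bp where the others were read at 40 bp, so that neutral conditioning and library preparation cannot be told apart. In what follows, the aversive and appetitive libraries together are called salient, and levels are CPM, the counts of a gene scaled to its library's total (counts per 1e6) after TMM normalization, which corrects that total for a few very abundant genes.

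Total counts lay between 16968588 and 67650693 per library, and the 3 neutral libraries were the deepest. A level of 3 counts, taken as the smallest that the depth can show, corresponded to between 0.0346 and 0.235 CPM, and covers counting error only. Markers of several cell types were present. The summed level of 6 oligodendrocyte markers, Mbp among them, was 49821 to 365475 CPM in mock, 24507 and 409810 in aversive, 802074 and 80005 in appetitive and 7438 to 35120 in neutral libraries, and the highest value came from 10256922 of the 26647573 counts of appetitive 1, whose TMM factor was 0.48. For 10 neuronal markers it was 222 to 387 CPM in the mock, 540.1 to 649 in the aversive, 174 to 777 in the appetitive and 75.9 to 102 in the neutral libraries. In both appetitive libraries 2 of the 10 neuronal markers had no counts. Many genes were missing from the salient libraries: 39.6% and 22.6% of tested genes had at most 3 counts in aversive 1 and aversive 3, 56.6% and 48.9% in appetitive 1 and 2, 2.09% to 17.2% in the mock and 17.5% to 23.3% in the neutral libraries.

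All members carry the cysteine spacing of their family in the coding sequence. The stretches below are from GENCODE M21 transcripts (GRCm38), read 5′ to 3′, with the codons of the leading cysteines in capitals, and are shown because they set the families apart and because the most abundant CC genes are close relatives whose reads could be mistaken for each other.

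Ccl3: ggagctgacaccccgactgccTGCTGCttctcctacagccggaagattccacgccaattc
Ccl4: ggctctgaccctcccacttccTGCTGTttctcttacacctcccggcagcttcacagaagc
Ccl12: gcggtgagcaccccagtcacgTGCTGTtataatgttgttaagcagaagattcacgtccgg
Ccl7: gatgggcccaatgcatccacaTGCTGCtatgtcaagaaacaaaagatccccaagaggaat
Cxcl10: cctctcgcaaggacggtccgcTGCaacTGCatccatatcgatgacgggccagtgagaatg
Cxcl12: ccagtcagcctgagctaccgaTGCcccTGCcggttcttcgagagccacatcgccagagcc
Cx3cl1: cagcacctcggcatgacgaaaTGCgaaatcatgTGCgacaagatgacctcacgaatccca

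The CC genes have 0 codons between these cysteines, the CXC genes have 1 and Cx3cl1 has 3. The stretches begin at coding base 79 in Ccl3 and Ccl4, 76 in Ccl7 and Ccl12, 67 in Cxcl10 and Cxcl12, and 73 in Cx3cl1. None of the 40-base words in the transcripts of Ccl2, Ccl3, Ccl4, Ccl5, Ccl7, Ccl12, Cxcl12 or Cx3cl1 occurred in a transcript of another gene, a length that matches the 40 bp of each read that the authors mapped. Cxcl10 shared 4.05% of its words with Art3, and Cxcl16 shared 17.7% with Zmynd15. Both partners lie on the opposite strand and the counts ignored strand, so reads from these overlaps could not be told apart.

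Of the 10 genes, 7 lie on chromosome 11. The genes Ccl2 (82035571 to 82037453, plus strand), Ccl7 (82045712 to 82047525, plus) and Ccl12 (82101845 to 82103400, plus), which encode ligands of Ccr2 or related receptors on monocytes, are close neighbours, as are Ccl5 (83525778 to 83530518, minus), Ccl3 (83647844 to 83649355, minus) and Ccl4 (83662584 to 83664683, plus). Cxcl16 lies apart from them (70453983 to 70459984, minus). Cxcl10 is on chromosome 5 (92346638 to 92348889, minus), Cxcl12 on chromosome 6 (117168535 to 117181367, plus) and Cx3cl1 on chromosome 8 (94772009 to 94782427, plus). All positions are whole genes of GRCm38.

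Promoter sequence from RefSeq (GRCm38.p6, 250 bases before to 50 after the start) was at hand for 5 of the 10 genes: Ccl3, Ccl12, Cxcl10, Cxcl12 and Cx3cl1. The windows were searched on both strands for the NF-kappaB consensus, the core of the interferon-stimulated response element (ISRE) and the AP-1 motif TGANTCA. Only the Cxcl10 window held any, and its stretch at chr5:92348947-92349112 (minus strand) is shown with the matches in capitals.

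Cxcl10: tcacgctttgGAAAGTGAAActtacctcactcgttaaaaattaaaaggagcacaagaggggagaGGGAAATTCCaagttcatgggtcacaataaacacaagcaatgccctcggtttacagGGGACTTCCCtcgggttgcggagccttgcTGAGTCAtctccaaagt

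In transcript order these are the interferon core, 2 matches to the NF-kappaB consensus and 1 AP-1 motif, which begin 213, 159, 103 and 74 bases before the start. Of 32851 promoter windows, 4.51% held the NF-kappaB consensus, 3.44% the interferon core and 7.81% the AP-1 motif. A match is a description of these letters and not evidence of binding.

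The level of chemokine ligand RNA and its make-up differed between libraries. Per kilobase of exon, the 10 genes summed to 102, 723 and 639 CPM per kb in mock 1 to 3, to 1930.2 and 348 in aversive 1 and 3, to 1477 and 696 in appetitive 1 and 2, and to 22.5, 40.6 and 26.8 in neutral 1 to 3. Every neutral library was below every other library on this scale. In CPM without division by length the neutral and mock libraries overlapped, with a sum of 288 in neutral 2 and 154 in mock 1. Ccl3 and Ccl4 together with Ccl12 led the sum per kb in the aversive and appetitive libraries. Cx3cl1 and Cxcl12 made up nearly all of it in the neutral libraries.

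**Figure D1:**
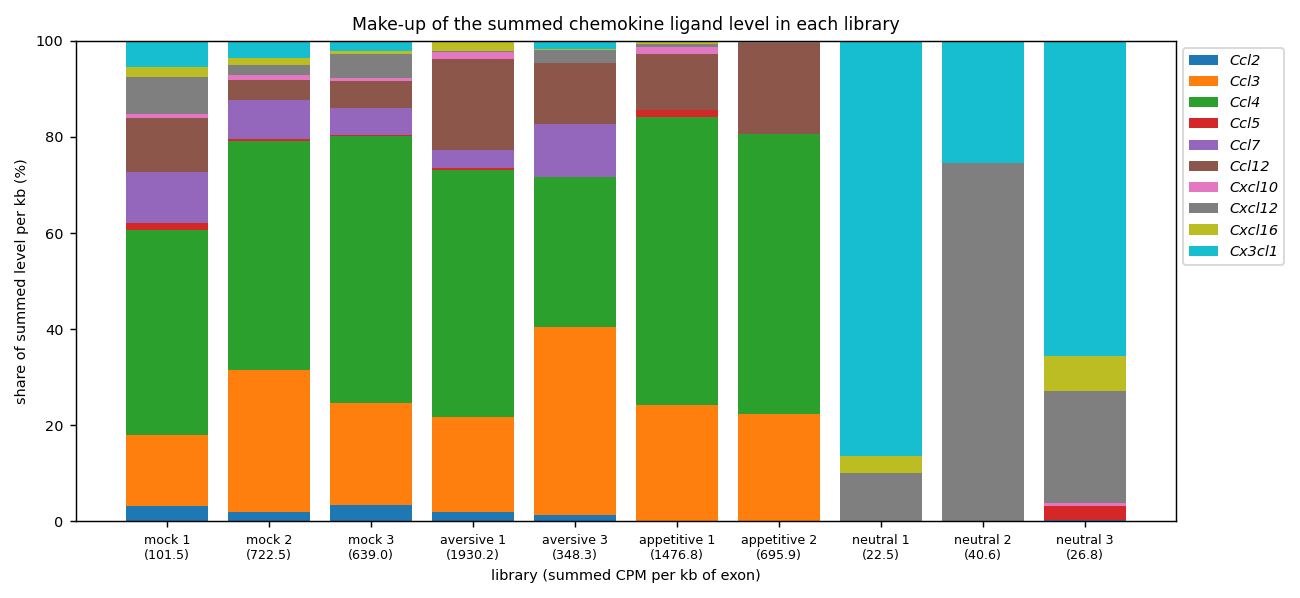
Share of each gene in the summed level of the 10 chemokine ligand genes, in percent of CPM per kb of exon, for each library, with the summed CPM per kb in parentheses. Ccl4 has a share of 31.3% to 59.9% in the mock, aversive and appetitive libraries, and Cx3cl1 and Cxcl12 fill the bars of the neutral libraries apart from Cxcl16 and, in neutral 3, Ccl5.

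In the mock libraries the order of mean levels per kb was Ccl4, Ccl3, Ccl7, Ccl12, Cxcl12, Cx3cl1, Ccl2, Cxcl16, Cxcl10 and Ccl5, from 248 to 1.73 CPM per kb, and no neighbours in that order were separated, since their ranges over the 3 libraries overlapped. In the aversive libraries the order began with Ccl4 (549.9 CPM per kb), Ccl3 (259) and Ccl12 (206), again with overlapping ranges. In the appetitive libraries Ccl4 (644 CPM per kb) was separated from Ccl3 (257), and Ccl12 (151) was separated from Ccl5 (11.5), while Ccl2 and Ccl7 stood last at 0.298 and 0.261. In the neutral libraries Cx3cl1 (15.8 CPM per kb) and Cxcl12 (12.9) were separated from the other 8 genes.

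**Figure D2:**
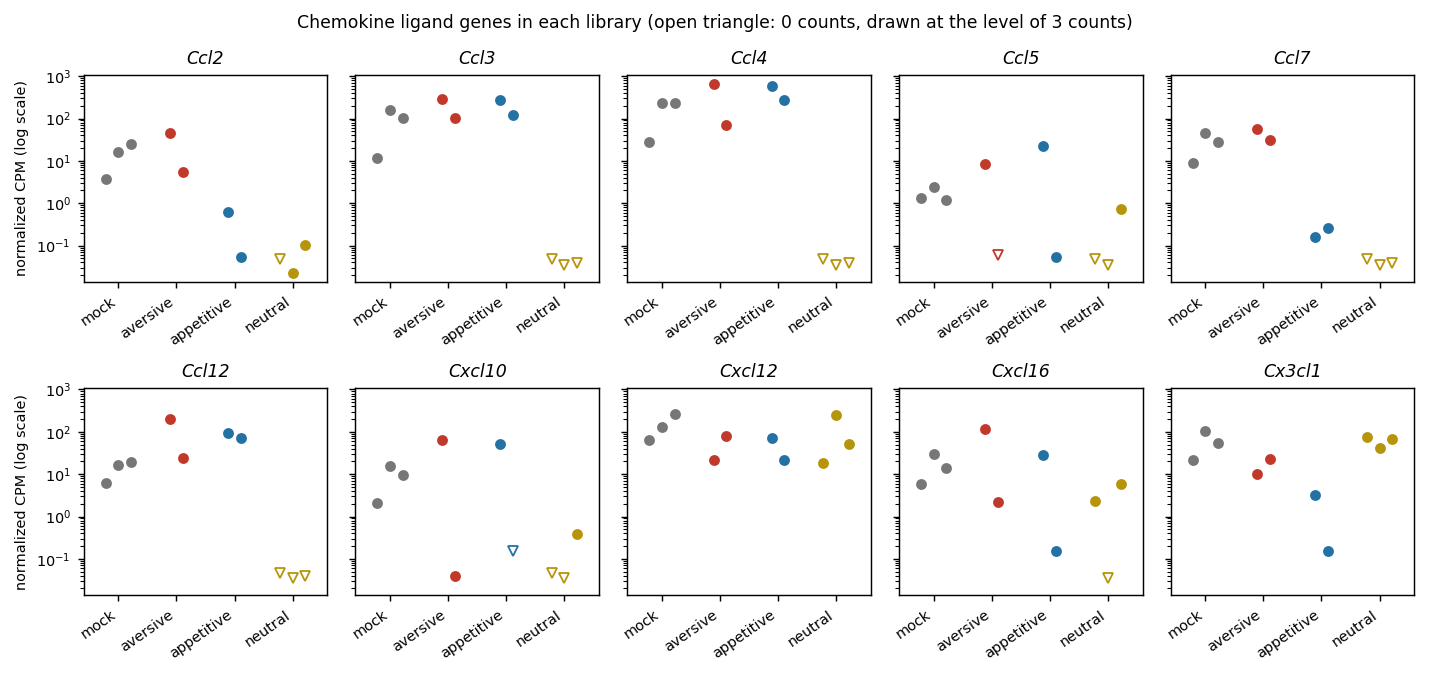
Normalized CPM, on a log axis, of each of the 10 genes in each library, grouped as mock (n = 3), aversive (n = 2), appetitive (n = 2) and neutral (n = 3). An open triangle marks a library with 0 counts and is drawn at the level of 3 counts in that library. Ccl3, Ccl4, Ccl7 and Ccl12 have 0 counts in all 3 neutral libraries, and Cx3cl1 and Cxcl12 have counts in every library.

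Ccl3 and Ccl4, also known as MIP-1alpha and MIP-1beta, are inflammatory ligands that draw macrophages and other leukocytes, and Ccl3 acts on Ccr1. Ccl3 was at 11.4, 163 and 103 CPM in mock 1 to 3, 292 and 104 in aversive 1 and 3, and 274 and 119 in appetitive 1 and 2, with 0 counts in each neutral library. The salient libraries overlapped mock 2, and mock 1 was lower than the other 6 libraries with counts. The mean of 92.7 CPM ± 76.4 (SD, n = 3) in mock was at least 1958-fold higher than the level of 3 counts in the neutral libraries. Ccl4 was at 28.5, 228 and 235 CPM in mock, 654 and 71.8 in aversive, and 583 and 267 in appetitive libraries, and again had 0 counts in every neutral library. Both appetitive libraries were above all mock libraries, and aversive 3 lay within the mock range. The mock mean of 164 CPM ± 117 (SD, n = 3) was at least 3460.1-fold higher than the neutral limit. Relative to Ccl3, Ccl4 was 1.62 to 2.90 times as abundant per kb in 6 libraries and 0.801 times as abundant in aversive 3.

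Ccl12, a mouse ligand of Ccr2 also called MCP-5, was the gene that was higher in every salient library than in every mock library. It was at 6.13, 16.6 and 19.2 CPM in mock 1 to 3, 198 and 23.8 in aversive 1 and 3, and 91.6 and 71.1 in appetitive 1 and 2, with 0 counts in every neutral library. The lowest salient value, in aversive 3, lay above the highest mock value, in mock 3. The neutral libraries were again below, and the mock mean of 14.0 CPM ± 6.92 (SD, n = 3) was at least 295-fold higher than their limit. Among all tested genes, 3.01% were higher in all 4 salient libraries than in all 3 mock libraries.

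Ccl7 and Ccl2, also called MCP-3 and MCP-1, are monocyte attractants that act on Ccr2. Ccl7 was at 8.68, 46.7 and 28.1 CPM in mock, 55.3 and 30.6 in aversive, and 0.156 and 0.262 in appetitive libraries, the last 2 values being 2 and 5 counts. It had 0 counts in the neutral libraries, and its mock mean of 27.8 CPM ± 19.0 (SD, n = 3) was at least 588-fold higher than their limit. The aversive libraries thus lay in or above the mock range while the appetitive libraries were below it. Ccl2 was at 3.82, 16 and 24.8 CPM in mock, 44.9 and 5.47 in aversive, and 0.626 and 0.0524 in appetitive libraries, the last 2 from 8 counts and 1 count, with 0, 2 and 8 counts in neutral 1 to 3. Both groups with few counts lay below mock, which had a mean of 14.9 CPM ± 10.5 (SD, n = 3).

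Ccl5 (RANTES, an attractant of T cells), Cxcl10 (an interferon-induced ligand of Cxcr3) and Cxcl16 (a membrane-bound ligand of Cxcr6) varied widely between the libraries of 1 group. Cxcl10 was at 2.03, 15.7 and 9.77 CPM in mock, 64.4 and 0.0401 in aversive, 50.9 and 0 in appetitive, and 0, 0 and 0.385 in neutral libraries. Aversive 1 and appetitive 1 were thus above all mock libraries, and aversive 3 and appetitive 2, with 2 counts and 0 counts, below all of them. Ccl5 was at 1.35, 2.45 and 1.19 CPM in mock, 8.56 and 0 in aversive, 22.1 and 0.0524 in appetitive, and 0, 0 and 0.719 in neutral libraries. It followed the same split as Cxcl10 among the salient libraries. Cxcl16 was at 5.85, 29.2 and 13.7 CPM in mock, 118 and 2.22 in aversive, 27.7 and 0.157 in appetitive, and 2.37, 0 and 5.96 in neutral libraries. Its neutral values overlapped mock, since neutral 3 was above mock 1.

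Cxcl12 (SDF-1), the ligand of Cxcr4 and Ackr3, was present in every library. It was at 64.0, 130.2 and 258 CPM in mock, 21.6 and 79.3 in aversive, 72.0 and 21.3 in appetitive, and 18.6, 248 and 51.0 in neutral libraries. The groups overlapped in each comparison with mock, and neutral libraries spanned nearly the whole range. The mock mean of 151 CPM ± 98.4 (SD, n = 3) and the neutral mean of 106 ± 124 (SD, n = 3) differed by less than the spread between libraries.

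Cx3cl1, a membrane-bound ligand whose release is helped by the proteases Adam10 and Adam17, had another pattern. It was at 22.1, 103 and 53.7 CPM in mock, 9.86 and 22.8 in aversive, 3.28 and 0.157 in appetitive, and 76.4, 40.5 and 68.9 in neutral libraries. The neutral libraries lay within the mock range, with a mean of 61.9 CPM ± 18.9 (SD, n = 3) against 59.6 ± 40.7 (SD, n = 3). The appetitive libraries were below all others, the lower of them with 3 counts. All salient libraries lay below all neutral libraries. Among all tested genes, 19.3% had every aversive value below every neutral value, and 27.2% had every appetitive value below.

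Set side by side with the neutral libraries, 7 of the 10 genes had every neutral value below every mock value (Ccl2, Ccl3, Ccl4, Ccl5, Ccl7, Ccl12 and Cxcl10), while 15.9% of all tested genes did, and none had every neutral value above, against 16% of tested genes. At the lowest mock level, the shallowest neutral library would have held 724 counts of Ccl3, 1809.8 of Ccl4, 550.3 of Ccl7 and 389 of Ccl12. Among tested genes 6.15% had 0 counts in all neutral libraries, and among the 9220 genes with at least 5 CPM in every mock library 41 did (0.445%), Ccl3, Ccl4, Ccl7 and Ccl12 among them. Of 3402 genes with at least 5 CPM in all mock, aversive and appetitive libraries, 4 (0.118%) had 0 counts in every neutral library: Ccl3, Ccl4, Ccl12 and Papss2, the last named after its values were seen. These shares are no support for the pattern, since low or absent neutral counts led to the choice of the 10 genes. The cut-offs of 5 CPM were added after seeing the data. In neutral 1 to 3, 7, 8 and 4 of the 10 genes had at most 3 counts, against 0 in each mock library. Among the salient libraries the number was 0 and 2 in aversive 1 and 3, and 1 and 5 in appetitive 1 and 2. Of all tested genes, 23.3%, 22.5% and 17.5% had at most 3 counts in neutral 1 to 3, and 2.09% to 17.2% in mock. The shares were 39.6% and 22.6% in aversive 1 and 3, and 56.6% and 48.9% in appetitive 1 and 2.

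The neutral libraries also had lower summed levels of the markers of several cell types. The summed level of 16 microglial markers was 2174, 3596 and 12993 CPM in mock 1 to 3, 10178 and 3662 in aversive 1 and 3, 6009 and 1647 in appetitive 1 and 2, and 51.3, 563 and 405 in neutral 1 to 3. Every neutral library was below all other libraries. The same held for the sums of the 8 astrocyte and the 10 neuronal markers. For astrocytes the sum was 4827 to 14728 CPM in mock, 5231 and 7072 in aversive, and 4793 and 3177 in appetitive libraries. In the neutral libraries it was 439 to 462 CPM. Taken singly, every neutral value was below every mock value for 14 of 16 microglial, 7 of 8 astrocyte and 5 of 10 neuronal markers. The other markers of these lists overlapped mock, and 15.9% of all tested genes lay below it in this way. Endothelial and mural markers overlapped mock. C1qb, which encodes a complement subunit and was the most abundant of the markers, was at 3.96, 78.3 and 54.9 CPM in neutral 1 to 3 and at 240.1 to 1096 in mock. In neutral 1, 5 of the 16 markers (Cx3cr1, C1qc, Siglech, Trem2 and Sall1) had 0 counts, and in neutral 2 and 3 none had. In bulk libraries fewer cells of a type and less RNA per cell cannot be told apart.

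Relative to the microglial markers, 5 of the 6 CC genes were below mock in every neutral library. This is a description, since low or absent neutral counts led to the choice of these genes. The divisor was also low in the neutral libraries, so few genes can fall below mock on this scale. Per 1000 counts of the markers, Ccl3 had 5.26, 45.4 and 7.96 counts in mock 1 to 3, 28.7 and 28.4 in aversive 1 and 3, and 45.5 and 72.5 in appetitive 1 and 2, and 0 in the neutral libraries, where 3 counts would be 0.922, 0.0615 and 0.0951. Ccl2, Ccl3, Ccl4, Ccl7 and Ccl12 were below mock in every neutral library on this scale, as were 0.486% of all tested genes, with the limit at neutral 1 resting on a sum of only 3253 marker counts. Ccl5 was not, at 0, 0 and 1.78 counts per 1000 in neutral 1 to 3 against 0.0915 to 0.681 in mock. Cxcl12 and Cx3cl1 were above mock in every neutral library, at 126 to 440.1 and 71.9 to 1488 counts per 1000, against 19.8 to 36.2 and 4.13 to 28.6. So were 65.2% of all tested genes on this scale, whose divisor was low in the neutral libraries, and by CPM both genes overlapped mock. Ccl12 was above mock in every salient library on this scale too, at 6.50 to 43.2 against 1.48 to 4.61, as were 0.273% of all tested genes. The same genes were separated when Cx3cr1 was left out of the markers. The part of microglial, astrocyte and neuronal marker levels in the CPM differences was not tested.

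**Figure D3:**
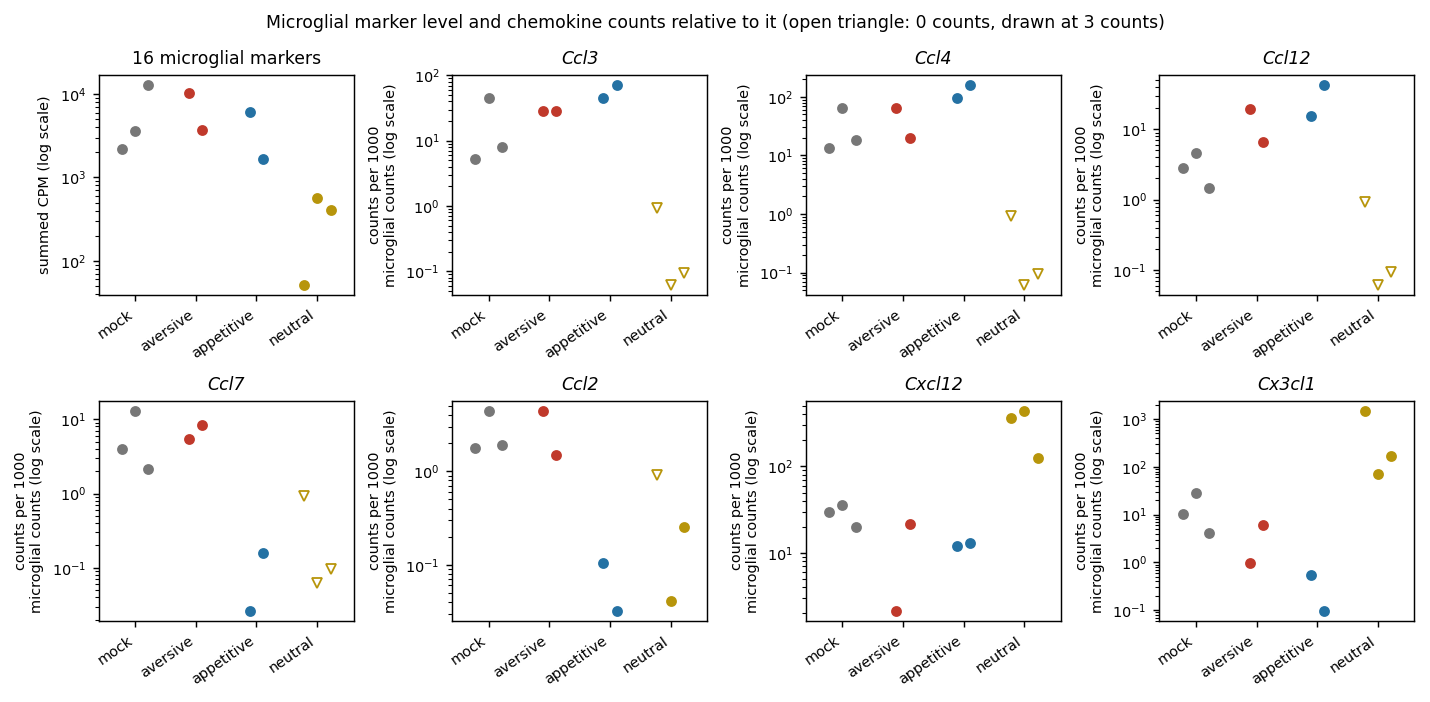
Summed CPM of 16 microglial markers and counts of 7 chemokine ligand genes per 1000 counts of those markers, by library and group, on log axes. Open triangles mark 0 counts and stand at the ratio that 3 counts would give. Ccl3, Ccl4 and Ccl12 have 0 counts in the neutral libraries, where the triangle of neutral 1, at 0.922, stands close under the lowest mock value of Ccl12, 1.48, and Cxcl12 and Cx3cl1 lie above mock.

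Among mock, aversive and appetitive libraries, which were prepared alike, 4 comparisons were tested with edgeR's quasi-likelihood test and Benjamini-Hochberg adjustment over the 19754 tested genes. None of the 10 genes was called at an adjusted p under 0.05 in any of them. In the comparison of salient with mock libraries 2.02% of tested genes were called. With no adjustment, 3 of the 10 genes had a p under 0.05, as did 24.5% of all genes: Ccl12 with a positive log2 fold change, as for 1.25% of all genes, and Cx3cl1 and Ccl7 with negative ones, as for 23.2%. DESeq2 called these 3 genes and 18.1% of all genes. Over all tested genes the median was -1.04 (log2), against which the following values stand. Ccl12 had a log2 fold change of 2.76 (SE 1.02; edgeR adjusted p = 0.143), with every salient library above every mock library. Cx3cl1 had a log2 fold change of -3.49 (SE 1.03; edgeR adjusted p = 0.0889), and Ccl7 had -3.20 (SE 1.06; edgeR adjusted p = 0.115). Without aversive 1 the value of Ccl12 was 1.53, and with the salient libraries fitted as 1 group the values of Ccl7 and Ccl2 were -0.23 and -0.0725. Ccl3 (1.09, SE 0.915), Ccl4 (1.26, SE 0.950), Cxcl10 (1.64, SE 2.37), Ccl5 (2.05, SE 2.52) and Cxcl16 (0.83, SE 1.90) had positive log2 fold changes, and Ccl2 (-2.35, SE 1.43) and Cxcl12 (-1.64, SE 0.936) negative ones.

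Compared with mock, the aversive libraries gave 0 called genes among all tested (0%), with 1968 at an unadjusted p under 0.05 by edgeR and 8.03% called by DESeq2, which called none of the 10 genes. Ccl12, with a log2 fold change of 2.98 (SE 1.12; edgeR adjusted p = 0.473), was the gene of the 10 with an unadjusted p under 0.05, which 9.96% of all genes had and 1.01% in the higher direction. Both its aversive values lay above mock, as they did for 11.4% of tested genes. The other 9 ranged from -1.87 for Cx3cl1 to 1.89 for Cxcl16. Without aversive 1 the value of Ccl12 was 0.69, and those of Ccl2, Ccl4, Ccl5, Cxcl10 and Cxcl16 were negative. Positive values were found for 8 genes and negative ones for 2, with a median of 1.12 against -0.13 for all tested genes.

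The appetitive libraries were compared with mock, and 1.98% of tested genes were called by edgeR. The median log2 fold change over all tested genes was -1.45. Ccl7 had a log2 fold change of -7.02 (SE 1.70; edgeR adjusted p = 0.0694), Cx3cl1 -5.12 (SE 1.50; 0.0933) and Ccl2 -5.47 (SE 2.20; 0.175), and none was called. These 3 genes were below mock in both appetitive libraries, as were 38.9% of all tested genes, and DESeq2 called them and 26% of all genes. With no adjustment 4 of the 10 genes had a p under 0.05 in edgeR, as did 23.8% of all genes, namely these 3 (21% of all genes in this direction) and Ccl12 (2.79%). Ccl12 had 2.54 (SE 1.11; edgeR adjusted p = 0.205) and Ccl4 1.38 (SE 1.08; 0.425), and both were above mock in both appetitive libraries, as were 9.78% of tested genes. Ccl7 was called in a fit without aversive 1 (-7.21) or aversive 3 (-7.04), and Cx3cl1 in a fit without appetitive 1 (-8.74).

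Between the appetitive and the aversive libraries 1.8% of tested genes were called, and the median log2 fold change over all tested genes was -0.48. Ccl7, at 43.0 CPM ± 17.5 (SD, n = 2) in aversive and 0.209 ± 0.0746 (SD, n = 2) in appetitive libraries, had a log2 fold change of -7.65 (SE 1.78; edgeR adjusted p = 0.0735). Ccl2 had -6.23 (SE 2.32; edgeR adjusted p = 0.183) and Cx3cl1 -3.25 (SE 1.41; edgeR adjusted p = 0.235). All 3 were lower in both appetitive than in both aversive libraries, which held for 20.1% of tested genes, and all 3 had an unadjusted p under 0.05, as did 20% of all genes and 15.8% in this direction. DESeq2 called Ccl7 and Ccl2 and 23.2% of all genes. The other 7 genes had log2 fold changes between -2.11 (Cxcl16) and 1.37 (Ccl5), with SEs between 1.16 and 3.14.

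**Figure D4:**
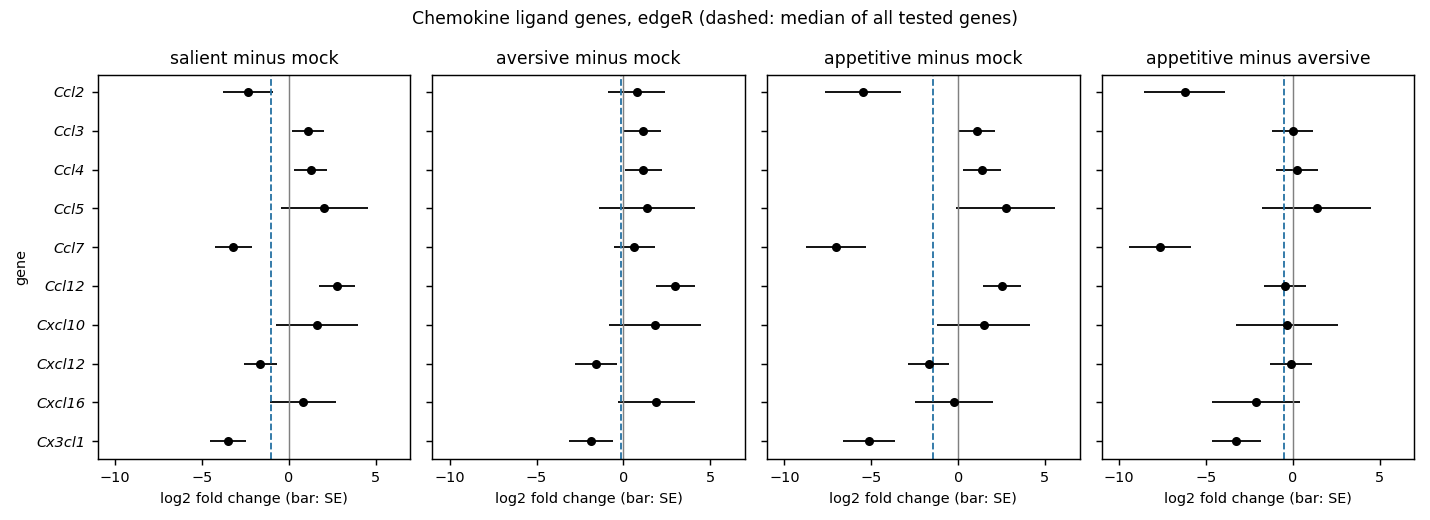
Log2 fold changes of the 10 genes in the 4 tested comparisons, from edgeR, with bars of 1 SE, and the median of all tested genes as a dashed line. Ccl7, Ccl2 and Cx3cl1 lie far below the median in the appetitive comparisons, and Ccl12 lies above it in the 3 comparisons with mock.

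Chemokine receptors carry the signal of the ligands into the responding cell. Of 23 chemokine receptor genes 16 were tested. Their median log2 fold change in salient against mock libraries was -2.92, against -1.04 for all tested genes. In the salient libraries 1 gene was called lower. That gene was Ackr3, an atypical receptor that binds Cxcl12 and removes it without G protein signalling. It was at 18.7, 65.4 and 41.8 CPM in mock, 37.4 and 29.8 in aversive, 0.0782 and 0.105 in appetitive (1 count and 2 counts), and 47.0, 152 and 55.0 in neutral libraries. Only the appetitive libraries were below mock. Its log2 fold change was -4.55 (SE 0.861; edgeR adjusted p = 0.0354) in salient against mock, -8.78 (SE 1.42; 0.0318) in appetitive against mock and -8.46 (SE 1.42; 0.0253) in appetitive against aversive libraries, and -0.32 (SE 0.917; 0.938) in aversive against mock. No gene was called when the 7 mock, aversive and appetitive libraries were fitted without the neutral libraries.

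The other receptors were not called. Ccr1 was at 1.39 to 8.20 CPM in mock, 0.05 and 0 in aversive and 0 in the appetitive and neutral libraries. Cx3cr1, the receptor of Cx3cl1 and a microglial marker, was at 83.9, 75.9 and 1403 CPM in mock, 91.4 and 158 in aversive, 92.8 and 7.39 in appetitive, and 0, 9.70 and 60.6 in neutral libraries. Mock 3 held most of its counts, with 101500. Ccr2 was at most 2.56 CPM in mock and at 71.9 CPM in appetitive 1 alone among the salient libraries, where it was above 0.150 in no other. In neutral 1 to 3 it was at 0, 8.71 and 2.08 CPM. Cxcr3 was at most 1.34, Cxcr4 at most 2.83 and Cxcr6 at most 8.88 CPM in any library.

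The proteases that release Cx3cl1 and Cxcl16 were measured in every library and neither was called. Adam10 was at 84.1, 107 and 208 CPM in mock, 49.0 and 13.3 in aversive, 28.6 and 10.5 in appetitive, and 16.1 to 80.9 in neutral libraries. Its salient values were all below mock, as were those of 16.4% of all tested genes. The log2 fold change was -2.43 (SE 0.815; edgeR adjusted p = 0.110), against a median of -1.04 over all tested genes. Adam17 was at 60.5 to 122 CPM in mock, 53.9 and 17.6 in aversive, 127 and 109 in appetitive, and 8.47 to 109 in neutral libraries, with a log2 fold change of -0.40 (SE 0.835; edgeR adjusted p = 0.823).

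Of 27 further chemokine ligand genes 19 were tested. None was called in salient against mock libraries, where 3 had a positive and 16 a negative log2 fold change. Ccl25, a ligand of Ccr9 known from thymus and gut, was called lower in appetitive against mock (log2 fold change -8.21, SE 1.77; edgeR adjusted p = 0.0435) and in appetitive against aversive libraries (-9.89, SE 1.90; 0.0338). It was at 11.2, 11 and 6.32 CPM in mock, 19.9 and 40.9 in aversive, 0 and 0.0524 in appetitive, and 15.8, 12.2 and 27.6 in neutral libraries. It overlaps Elavl1 on the opposite strand in 204 exonic bases, where reads of the pair could not be told apart.

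Inducers of inflammatory chemokines, such as the cytokines Tnf and Il1a and subunits and inhibitors of NF-kappaB, were all measured, and none of the 14 was called in any comparison. Their median log2 fold change was -0.45 in salient against mock, 0.53 in aversive against mock and -0.96 in appetitive against mock libraries. The medians over all tested genes were lower, at -1.04, -0.13 and -1.45. The 3 cytokines named next were chosen after their values were seen. Tnf was at 5.61, 28.0 and 42.2 CPM in mock, 181 and 27.9 in aversive, 36.1 and 3.25 in appetitive, and 0, 0 and 0.0257 in neutral libraries. Il1a was at 53.2 to 205 CPM in mock, 814 and 33.2 in aversive, 187 and 83.9 in appetitive and 0 to 4.19 in neutral libraries. Il1b was at 11.5 to 73.7 CPM in mock, 161 and 0.782 in aversive, 0.0782 and 0.157 in appetitive, with 0 counts in every neutral library. All 3 were below mock in every neutral library. Of the 14 genes 7 were, as were 15.9% of all tested genes. The other 7, among them Nfkb1, Rela, Relb and Myd88, overlapped mock.

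Markers of the other cell types were given a place beside the chemokines in the same fit. No marker of microglia (16), astrocytes (8), endothelium (7), mural cells (4), neurons (10), oligodendrocytes (6) or blood leukocytes (10 of 11 tested), and none of 9 immediate early genes, was called in the 4 comparisons. Median log2 fold changes in salient against mock libraries were -0.36, -1.02, -1.66, -1.86, -0.61, 0.75 and -1.54 for these 7 marker lists and -0.64 for the immediate early genes. Over all tested genes the median was -1.04. Among 5 markers of perivascular macrophages, F13a1 was lower in salient (log2 fold change -7.81, SE 1.36; edgeR adjusted p = 0.0326) and in appetitive libraries (-8.86, SE 1.98; 0.0494). It encodes a coagulation factor subunit, and its counts were 519, 400 and 3764 in mock, 7 and 11 in aversive, 1 and 1 in appetitive, and 1, 1 and 0 in neutral libraries. No other marker of this list was called. The sum of the 5 was 40.5 to 155 CPM in mock, 126 and 2.28 in aversive, and 0.704 and 6.55 in appetitive libraries. In aversive against mock libraries 2 of the 5 had positive and 3 had negative log2 fold changes, with a median of -0.02. The part of all these markers in the chemokine values was not tested.

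Over the 7 mock, aversive and appetitive libraries, the profiles nearest to each of 4 genes were found by the root-mean-square distance between centred log2(CPM + 1) values. Nearest to Ccl3 (own spread 1.41) were Rps3a1 (distance 0.424), Rnaset2b (0.424) and Hspa1b (0.682). Nearest to Cxcl10 (own spread 2.31) were Ang (0.438), Usp18 (0.597) and Trmt11 (0.706), which were low in aversive 3 and appetitive 2, as Cxcl10 was. Nearest to Cxcl12 (1.18) were Frmd6 (0.405), Kdm5a (0.433) and Tjp1 (0.498), and nearest to Cx3cl1 (2.04) were Ablim1 (0.507), St8sia4 (0.526) and Net1 (0.589). Each of these 3 was lowest in the appetitive libraries, as Cx3cl1 was.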

How the data were processed

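Reads were cut to 40 bp by the authors, aligned to mm10 by STAR and assigned to 53379 Ensembl genes by featureCounts without strand, and these counts were deposited unnormalized. Tool versions are not given in the sources used here. Counts came from 10 libraries, grouped by their labels. Of the identifiers, 53274 matched GENCODE M21.

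The package edgeR 4.0.16 (R 4.3.3) scaled libraries by TMM (factors 0.48 to 1.45), kept 19754 genes by filterByExpr, and fitted a quasi-likelihood model with 4 groups. Its two-sided p-values received Benjamini-Hochberg adjustment over all genes tested, and a gene was called at an adjusted p under 0.05. Standard errors were derived from edgeR's F statistics. Levels are CPM. A fold against libraries with 0 counts was set against the highest level of 3 counts among them (0.0473 CPM). Alternatives were DESeq2 1.42.0, other scalings and filters, other sets of libraries and the replicate number as a block. The steps were tested on simulated data. The backgrounds with a minimum of 5 CPM and per marker count, and the scalings of the salient against mock separation, were added after seeing the data.

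The genes and the lists beside them were chosen with earlier results of these data known, so no test was made on any list. The genes named one by one were the 10 members, their receptors (1 is not reported here) and proteases, up to 3 called genes of each list and direction, the most abundant microglial marker and called markers, and the 3 nearest profiles.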

Additional observations from a re-analysis of the deposited data

How the results depend on the processing

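None of the 10 genes was called with other scalings in edgeR, in the 7 mock, aversive and appetitive libraries alone, or with the replicate block. How many genes were called, and so what an adjusted p near 0.05 means here, depended on the fit, and the cause was not tested. Numbers of genes called in salient against mock, aversive against mock, appetitive against mock and appetitive against aversive libraries were 857, 10, 1124 and 1270 with no filter on low counts, 3496, 1457, 4718 and 3942 with DESeq2, and 0, 0, 0 and 0 in the 7 mock, aversive and appetitive libraries alone. With DESeq2 at the threshold of the study (adjusted p under 1e-05, over 4-fold) they were 244, 829 and 877 in the last 3 comparisons. DESeq2 size factors gave 253 in salient and 260 in appetitive libraries against mock, and a fit of the groups compared alone gave 0, 0, 3585 and 0. Of the 10 genes, DESeq2 called 3, 0, 3 and 2, and 1 (Ccl7) at the threshold of the study in each appetitive comparison. Ccl7 was also the 1 gene called with no filter (appetitive against aversive) and with the groups alone (appetitive against mock).

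Whether replicate numbers pair the libraries could not be decided. The libraries were correlated by their deviations from group means, which mirror each other in a group of 2 libraries. Of 12 pairs with the same number 3 correlated above 0.1 (r from -0.08 to 0.20). Of 10 libraries 6 correlated best with one of their own number. With the replicate block 0, 0, 0 and 0 genes were called. Log2 fold changes that changed sign under the block were those of Cxcl16 (-2.68), Cxcl10 (-2.15) and Ccl5 (-1.02) in salient against mock, of Cxcl16 (-1.68), Cxcl10 (-1.99) and Ccl5 (-1.74) in aversive against mock, of Cxcl10 (-2.31) and Ccl5 (-0.30) in appetitive against mock, and of Cxcl12 (0.64) in appetitive against aversive libraries. With DESeq2 size factors and with DESeq2 the sign changed for Cxcl16 in appetitive against mock (0.12 and 0.12), and for Ccl3 (0.17 and 0.17) and Cxcl12 (0.0942 and 0.0980) in appetitive against aversive libraries. With library size alone it changed for Cxcl16 in salient against mock (-0.0038).

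Leaving out each library in turn gave 0 to 1400, 0 to 0, 0 to 1800 and 0 to 1460 called genes, and 0 to 1 of the 10 genes in each comparison but aversive against mock, where it was 0. Each count fell to 0 without any mock library, and without any neutral library except for 84 genes between the appetitive and aversive libraries without neutral 2. The 1 gene was Cx3cl1 without appetitive 1 in all 3 comparisons, or Ccl7 without aversive 1 or 3 in appetitive against mock.
Signs also changed in these fits. In salient against mock libraries this held for Cxcl16 (-2.50 to 1.48), Cxcl10 (-5.03 to 2.21) and Ccl5 (-3.43 to 2.54), without aversive 1 or appetitive 1, and for Ccl4 (-0.0247 to 1.68) without aversive 1. Without aversive 1 it held in aversive against mock for Cxcl16 (-2.95 to 2.86), Ccl4 (-1.25 to 1.99), Cxcl10 (-7.82 to 2.80), Ccl5 (-9.39 to 2.36) and Ccl2 (-1.51 to 1.58). In appetitive against mock it held for Cxcl16 (-6.87 to 0.59) without mock 2 or appetitive 2, and for Cxcl10 (-11.85 to 2.30) and Ccl5 (-5.13 to 3.53) without appetitive 1. Between appetitive and aversive libraries the values ran from -0.89 to 0.81 for Ccl3, -8.72 to 2.54 for Cxcl16, -0.63 to 2.46 for Ccl4, -13.65 to 9.12 for Cxcl10, -6.45 to 11.93 for Ccl5, -1.29 to 1.66 for Ccl12 and -1.37 to 1.11 for Cxcl12.
Of 40 values, 21 kept their sign in all 17 alternatives, and 9 were called in at least 1. The number of genes with every neutral value below every mock value was 8 with DESeq2 size factors, which added Cxcl16, and 7 with library size alone. With 2 or 3 libraries a group, levels under 3 counts could not be told from 0.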
